A study of Mus musculus with 32 samples.

Results

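The 202 broad H3K4me3 domains of *Kat2a* WT *MLL-AF9* leukemia were the H3K4me3 consensus regions at least 3000 bp wide, of 12641 consensus regions in all (1.60%). A consensus region was a stretch of merged overlapping peaks, in mm10 coordinates, that held a peak of both WT replicates. The members were chosen by the width of the WT H3K4me3 peaks, so their H3K4me3 width and continuity in WT describe the choice and are no finding. They held 5.15% of the bases of all consensus regions, with a median width of 3494 bp against 1048 bp over all regions.

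The study used ChIP-seq (chromatin immunoprecipitation and sequencing) of H3K4me3, H3K4me1, H3K9ac and H3K27ac to compare primary leukemias with and without *Kat2a*, a histone acetyltransferase. Both genotypes were *Kat2a* Flox/Flox on a C57Bl/6 background and received pIpC, which induces the Mx1-Cre recombinase through the interferon response. WT mice were Mx1-Cre -/- and kept the locus, and KO mice were Mx1-Cre +/- and lost the floxed part of it. Lineage-depleted marrow of either genotype received the *MLL-AF9* fusion by retrovirus and was placed in lethally irradiated recipients, and the marrow of terminal leukemias was pooled from 5 animals for WT and 4 for KO. Each mark had 2 libraries per genotype, R1 and R2, from the same pools, so their spread does not contain the variation between leukemias. Total marrow was used, so cells of the host can be present, and the peak lists offer no check of the loss of *Kat2a* itself.

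None of the 16 peak lists gives counts. Depth is therefore unknown for every library, and a stretch without a peak has no stated limit of detection. The H3K4me3 libraries differed in how many wide peaks they held. Peaks of at least 3000 bp numbered 178 in WT R1 and 11 in WT R2, and 23 in KO R1 and 53 in KO R2. WT R1 also covered the most of the genome, 18.7 Mb against 10.03 to 14.8 Mb in the other lists, so the members' widths were set mainly by that single library. H3K9ac lists covered 26.8 and 28.9 Mb in WT and 20.7 and 24.7 Mb in KO. Replicate 1 of H3K27ac and of H3K4me1 stood apart in both genotypes, with a median peak width of 48 or 49 bp, and only replicate 2 of these marks is used below. Of 10 markers of myeloid leukemia cells, 6 had a TSS (transcription start site) in a WT consensus region, *Cebpa*, *Csf1r*, *Fcgr3*, *Kit*, *Ptprc* and *Spi1*, and *Mpo*, *Elane*, *Itgam* and *Cd34* did not. No marker of erythroid, B, T or megakaryocyte cells had one, and 1 of 4 stroma markers did, *Cxcl12*. In KO consensus regions the same 10 markers again gave 6, the 4 erythroid markers gave 1, and the stroma, B, T and megakaryocyte markers gave 0. The part of other cell types in the results was not tested.

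H3K4me3 is written by the SET1 and MLL complexes at active promoters, usually as a narrow peak over the first nucleosomes of the gene. At some genes it spreads far into the gene body, and such broad domains are known to mark genes of cell identity, among them the targets of MLL fusion proteins in leukemia. Kat2a acetylates H3K9, and H3K9ac and H3K27ac are both found at active promoters.

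The domains reached beyond the CpG-rich start of their genes. Over all members the median density was 41.6 CpG per kb, against 56.7 in the other consensus regions, and the median GC content was 54.0% against 57.6%. The density was lower in each wider class of regions, from 58.8 CpG per kb under 1000 bp to 50.3 from 2000 to just under 3000 bp. In the 156 domains with a single protein-coding gene, read from the most upstream TSS of that gene inside the domain, the mean density was 79.4 CpG per kb in the first 250 bases of the gene and 19.1 between 2750 and 3000 bases. In the other regions with a single protein-coding gene, the same windows gave 90.5 and 11.2 CpG per kb. Between 1000 and 1250 bases the mean was 42.2 in the domains, 31.6 in regions from 2000 to just under 3000 bp and 19.3 in all other regions. At an equal distance inside the gene the domains were thus richer in CpG there, although their density over the whole width was lower. The 200 bases before the start held a median of 13.5 CpG in these domains, and the first exon-free window of 200 bases inside the gene, from 1500 bases on, held a median of 3 in the 117 domains that have such a window. The sequences of 4 domains of blood transcription factors show the range. They are given 5′ to 3′ along the gene from the GRCm38.p6 assembly of RefSeq, with each CpG in capitals.
Ikzf2, before the start, chr1:69687246-69687445, minus strand: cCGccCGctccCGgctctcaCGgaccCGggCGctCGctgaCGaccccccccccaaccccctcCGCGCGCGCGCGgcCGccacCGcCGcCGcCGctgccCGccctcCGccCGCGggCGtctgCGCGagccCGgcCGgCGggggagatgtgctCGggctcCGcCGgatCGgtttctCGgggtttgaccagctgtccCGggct
Ikzf2, intron, chr1:69685446-69685645, minus strand: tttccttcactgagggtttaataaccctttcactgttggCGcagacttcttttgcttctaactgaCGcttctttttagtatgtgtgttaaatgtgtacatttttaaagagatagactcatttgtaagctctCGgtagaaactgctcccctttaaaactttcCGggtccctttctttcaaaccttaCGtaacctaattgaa
Myb, before the start, chr10:21160985-21161184, minus strand: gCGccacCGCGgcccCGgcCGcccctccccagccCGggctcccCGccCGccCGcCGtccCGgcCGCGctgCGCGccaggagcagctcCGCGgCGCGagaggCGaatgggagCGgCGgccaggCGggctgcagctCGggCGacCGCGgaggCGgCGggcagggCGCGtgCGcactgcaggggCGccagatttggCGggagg
Myb, intron, chr10:21159285-21159484, minus strand: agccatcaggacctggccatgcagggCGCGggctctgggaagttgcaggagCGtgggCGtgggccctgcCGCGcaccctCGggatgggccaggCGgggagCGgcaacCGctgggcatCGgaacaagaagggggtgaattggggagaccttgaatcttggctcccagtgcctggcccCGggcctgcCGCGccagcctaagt
Meis1, before the start, chr11:19018986-19019185, minus strand: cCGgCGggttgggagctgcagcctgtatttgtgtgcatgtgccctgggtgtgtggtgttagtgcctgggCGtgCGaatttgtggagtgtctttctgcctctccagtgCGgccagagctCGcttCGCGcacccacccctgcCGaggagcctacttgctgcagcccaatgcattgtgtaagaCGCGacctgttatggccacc
Meis1, intron, chr11:19017286-19017485, minus strand: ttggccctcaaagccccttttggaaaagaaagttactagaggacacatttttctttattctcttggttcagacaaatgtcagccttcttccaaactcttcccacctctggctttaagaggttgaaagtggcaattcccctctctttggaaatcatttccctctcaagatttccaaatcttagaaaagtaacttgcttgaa
Erg, before the start, chr16:95459349-95459548, minus strand: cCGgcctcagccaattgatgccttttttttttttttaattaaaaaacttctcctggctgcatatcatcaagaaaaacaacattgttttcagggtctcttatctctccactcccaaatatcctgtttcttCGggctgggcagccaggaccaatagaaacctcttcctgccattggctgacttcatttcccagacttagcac
Erg, intron, chr16:95457649-95457848, minus strand: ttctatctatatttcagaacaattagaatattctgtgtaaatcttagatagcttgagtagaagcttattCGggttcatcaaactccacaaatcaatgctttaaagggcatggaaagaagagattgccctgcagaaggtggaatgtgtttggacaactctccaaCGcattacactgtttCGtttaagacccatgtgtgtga
*Ikzf2* and *Myb* started in dense CpG, with 35 and 34 in the 200 bases before the start, and their introns held 5 and 14. *Meis1* had 11 before the start and 0 in the intron, and *Erg* had 2 and 3, so both windows were poor in CpG at *Erg*. The start is here a TSS inside the domain and need not be the outermost of the gene. An outermost TSS of a gene lay in 74.8% of the domains. The windows before the start end at the base before the TSS, and that of *Ikzf2* lies largely outside the domain, which begins near the TSS. In the 300-base promoters of RefSeq (250 bases before the start to 50 after it), the median was 22 CpG in the 231 promoters inside domains and 22 in the 8937 inside any WT consensus region. The letters CACGTG, which the Myc family binds, occurred in 8.66% of the promoters in domains, in 10.5% of those in any consensus region and in 7.15% of all 32851. The letters CCGGAAG, which ETS factors such as Gabpa bind, occurred in 11.7%, 22.2% and 8.86%. Both were searched on both strands, and neither contains the other.

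Most domains lay at genes. A TSS of any annotated GENCODE M21 transcript lay in 190 of the 202 (94.1%), and a protein-coding TSS in 180. Of these, 156 held a single protein-coding gene and 24 held more. The other 22 held only noncoding starts (10) or none (12). The domains extended into the gene: in the 156, the median extent was 700.5 bp upstream of the TSS and 2985 bp downstream, and 149 (95.5%) lay mostly downstream. The narrower consensus regions had the same direction, with 201 bp upstream, 841 bp downstream and 89.2% mostly downstream. Taking the most upstream TSS inside a region lengthens the downstream side in both. The genes were of like length, with a median of 29.2 kb in the domains and 26.4 kb in the other regions.

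Transcription factors of blood stem and progenitor cells and targets of *MLL-AF9* had a larger share in broad domains than all protein-coding genes. The lists were chosen with earlier results of these data known, so these shares are a description and no independent evidence. Over all protein-coding genes with a TSS in a WT consensus region, 201 of 9656 (2.08%) had one in a broad domain. Of 19 stem and progenitor factors 11 did, *Erg*, *Etv6*, *Fli1*, *Hhex*, *Ikzf2*, *Lmo2*, *Lyl1*, *Meis1*, *Myb*, *Myc* and *Nfe2*. Of 20 *MLL-AF9* targets 11 did, *Cdk6*, *Eya1*, *Hoxa7*, *Hoxa9*, *Hoxa10*, *Lmo2*, *Mef2c*, *Meis1*, *Myb*, *Runx2* and *Tcf4*, of which *Lmo2*, *Meis1* and *Myb* are in both lists and *Runx2* and *Tcf4* also among the myeloid factors. Of 24 myeloid factors 5 did, *Cebpa*, *Gfi1*, *Runx2*, *Tcf4* and *Zeb2*. Of 27 tumor suppressors 4 did, *Trp53* among them. None of the 76 cytosolic and 76 mitochondrial ribosomal protein genes with a WT region was in a broad domain, nor any of 19 canonical histone genes or of 3 factors of other lineages. At a share of 2.08% few members would be reached in lists of this size, so nothing is read from these counts. *Eya1*, *Zeb2* and *Gse1* each had 2 domains and the *Hoxa* genes had 5, so genes and domains are not independent items.

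The same width limit gave fewer broad domains in KO, 109 of 13779 consensus regions (0.791%). Of the WT domains 83 (41.1%) overlapped a broad KO domain, and of the KO domains 83 (76.1%) overlapped a broad WT one. The share was higher in wider domains, from 44 of 144 domains below 4000 bp to 29 of 46 from 4000 to just under 5000 bp and 10 of 12 at 5000 bp or more. Of the 11 *MLL-AF9* targets in a broad WT domain, 10 were also in a broad KO domain (all but *Tcf4*), and 8 of the 13 domains of this list were at least 4000 bp wide. For the stem and progenitor factors it was 6 of 11, for the myeloid factors 3 of 5 and for the tumor suppressors 0 of 4, against 82 of 201 over all protein-coding genes. The 26 broad domains of KO alone included *Ikzf1*, a lymphoid and progenitor zinc finger factor, with 3353 bp in KO and 1289 bp in WT, and *Ier2*, an immediate early gene, with 4052 bp and 2773 bp. These counts depend on the reach of single libraries, since WT R1 held more wide peaks than both KO libraries together.

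Within the stretches of the WT domains, H3K4me3 was a single peak in 177 domains in WT R1 and in 29 in WT R2, and in 26 in KO R1 and 60 in KO R2. These are shares of 87.6% and 14.4% for WT, and of 12.9% and 29.7% for KO, so the replicates of WT lay further apart than the genotypes. WT averaged 51.0% ± 51.8 and KO 21.3% ± 11.9 (mean ± SD, n = 2 libraries each), and KO minus WT was -29.7 percentage points (two-sided exact permutation test over libraries, p = 0.667). Peaks covered 98.8% and 67.4% of the bases in WT R1 and R2, and 72.5% and 80.5% in KO R1 and R2. Both KO libraries lay between the WT libraries, and the difference of -6.57 points had an exact permutation p of 1. The WT libraries of this mark chose the domains, so neither test can measure an effect of the genotype. In the within-number differences the sign turned, with -26.3 points for R1 and 13.1 for R2. The longest peak per domain had a median of 3392.5 and 1586 bp in WT, and of 1748.5 and 2343 bp in KO.

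Few domains were a single peak in both libraries of a genotype. A single peak need not fill the domain, and in WT R2 only 11 domains had at least 3000 bp inside 1 peak. The stretch was 1 peak in both WT libraries in 26 domains, in both KO libraries in 9 and in all 4 libraries in 2. It was 1 peak in WT R1 and in none of the other 3 libraries in 96 domains (47.5%), and in neither KO library in 125. Every domain held a peak of both WT libraries by the rule, and 201 of 202 held one in KO R1 and all 202 in KO R2. More peaks in both KO libraries than in both WT libraries were counted in 23 domains (11.4%), against 2.48% over all consensus regions and 8.93% in regions from 2000 to just under 3000 bp. Lower cover in both KO libraries was counted in 27 (13.4%), against a background of 16.9%, and higher cover in 0, against 1.76%. All of these use the libraries of the rule and are given without a reading. When the regions were instead the 109 broad domains of KO, the cover was 95.4% and 72.5% in WT R1 and R2 and 85.7% and 93.6% in KO R1 and R2, and the mean difference was 5.70 points. Within the replicate numbers it was -9.67 points for R1 and 21.1 for R2, the same signs as in the WT domains. The single-peak share of these regions differed by -4.59 points, so with this choice the mean difference turned for cover and not for the single-peak share.

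**Figure D1:**
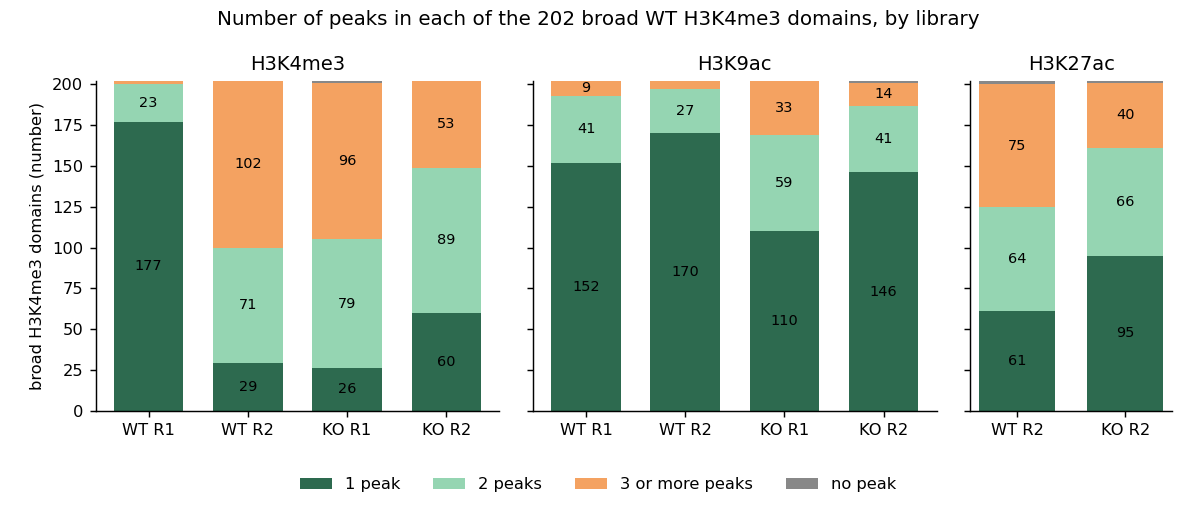
Stacked bars count the 202 broad WT domains by the number of peaks of each library that they overlap, for H3K4me3, H3K9ac and replicate 2 of H3K27ac; the vertical axis is the number of domains and starts at 0. H3K4me3 was 1 peak in 177 domains in WT R1 and in 26, 29 and 60 in the other 3 libraries, and H3K9ac was 1 peak in 152 and 170 domains in WT and in 110 and 146 in KO.

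The 5 domains that were 1 peak in both WT libraries and held the most peaks in KO were at *Hhex*, *Gse1*, *Zc3hav1*, *Ddx39b* and *Ino80d*. *Hhex*, a homeobox factor of blood progenitors (chr19:37433894-37437707, 3814 bp), had 1 H3K4me3 peak in each WT library, 4 in KO R1 and 2 in KO R2. Its H3K4me3 cover was 100% and 64.0% in WT R1 and R2 and 62.5% and 69.1% in KO R1 and R2, so WT R2 and both KO libraries covered a like share of it. *Gse1*, whose product is found with histone deacetylase complexes, had 4 peaks in KO R1 and 1 in KO R2 over 4357 bp. *Zc3hav1*, an antiviral RNA-binding protein, and *Ddx39b*, an RNA helicase of splicing and export, each had 2 peaks in KO R1 and 3 in KO R2. *Ino80d*, a subunit of the INO80 remodeler, had 3 and 2. H3K4me3 cover in WT R2 was below that of either KO library in *Zc3hav1*, *Ddx39b* and *Ino80d*, and between them in *Hhex* and *Gse1*.

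H3K9ac, which the rule did not use, lay almost without a break over the WT domains. Its peaks covered 96.5% and 96.7% of their bases in WT R1 and R2, and 88.2% and 94.1% in KO R1 and R2. Both KO libraries were below both WT libraries. WT averaged 96.6% ± 0.133 and KO 91.1% ± 4.15 (mean ± SD, n = 2 libraries each), and KO minus WT was -5.43 percentage points (two-sided exact permutation test, p = 0.333, the smallest that 2 against 2 libraries allow). Within the replicate numbers it was -8.27 and -2.59 points. The other consensus regions gave a difference of like size, from 90.5% and 89.6% for WT to 81.3% and 86.8% for KO, or -5.94 points (exact permutation p = 0.333). The cover of the domains minus that of the other regions was 6.00 and 7.10 points in WT and 6.86 and 7.25 points in KO, and the difference of 0.506 points between genotypes was within the spread between libraries (exact permutation p = 0.667). The H3K9ac lists of KO covered less of the genome altogether, as given above, and the part of this in the difference was not tested.

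**Figure D2:**
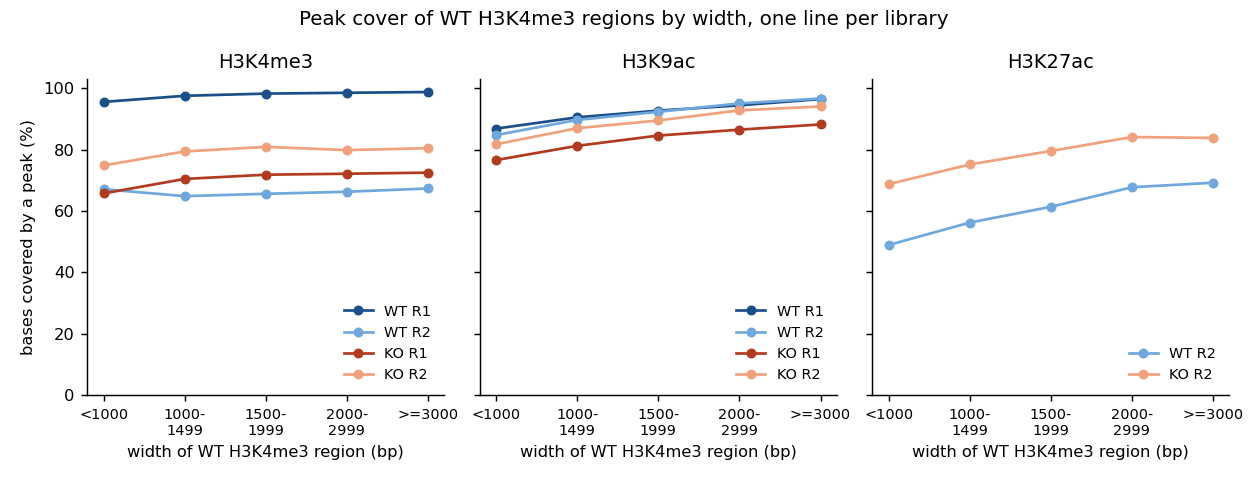
Points give the share of bases covered by a peak (vertical axis, %) in WT H3K4me3 regions of 5 width classes (horizontal axis, bp), 1 line per library, for H3K4me3, H3K9ac and replicate 2 of H3K27ac. For H3K9ac both KO lines lie below both WT lines in every class, and the broad class reads 96.5% and 96.7% in WT and 88.2% and 94.1% in KO; for H3K27ac the KO library lies above the WT library throughout.

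In all, 201 of the 202 domains held an H3K9ac peak in all 4 libraries, and 101 were covered to at least 90% in all 4. Lower cover in both KO libraries than in both WT libraries was found in 72 domains (35.6%), against 25.9% over all consensus regions and 30.9% in regions from 2000 to just under 3000 bp. Equal cover in all 4 libraries, with which no such call is possible, was found in 7.92% of the domains and in 13.2% of all regions. Higher cover in both KO libraries was found in 3 domains (1.49%), against a background of 3.56%.

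The stretch of H3K9ac was broken in more domains in either KO library than in either WT library. H3K9ac was a single peak in 152 and 170 domains in WT R1 and R2 (75.2% and 84.2%), and in 110 and 146 in KO R1 and R2 (54.5% and 72.3%). Both KO libraries lay below both WT libraries, and KO minus WT was -16.3 percentage points (means ± SD of 79.7% ± 6.30 and 63.4% ± 12.6, n = 2 libraries each, exact permutation p = 0.333). The other regions gave 91.4% and 91.0% in WT and 85.2% and 88.4% in KO. Set against them, the domains stood at -16.1 and -6.86 points in WT and at -30.7 and -16.2 points in KO, a difference of -12.0 points between genotypes (exact permutation p = 0.333), with WT R1 and KO R2 almost equal. This contrast of single-peak shares was not a planned comparison. The single-peak share counts a region without a peak as not single. The domains had only 1 such case, in KO R2. The other regions had 290 and 465 in WT and 747 and 570 in KO, so this contrast mixes absent peaks with split ones. Wider regions were split more often in every library: from 2000 to just under 3000 bp the share was 82.6% and 87.2% in WT and 70.8% and 81.8% in KO. Gaps between H3K9ac peaks took 1.33% and 1.05% of the bases of the domains in WT and 4.23% and 1.82% in KO, and uncovered ends took 2.20% and 2.29% in WT and 7.57% and 4.11% in KO. H3K9ac was 1 peak in both WT libraries in 134 domains, in both KO libraries in 95 and in all 4 in 78. It was 1 peak in both WT libraries and neither KO library in 13 domains, and the reverse in 3. More peaks in both KO libraries than in both WT libraries were counted in 16 domains (7.92%), against 1.22% over all regions and 3.21% in regions from 2000 to just under 3000 bp, and fewer peaks in 3 (1.49%), against 1.36%. The share of the domains was thus above the background for more peaks and near it for fewer peaks, and narrow regions can hold fewer peaks to begin with.

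**Figure D3:**
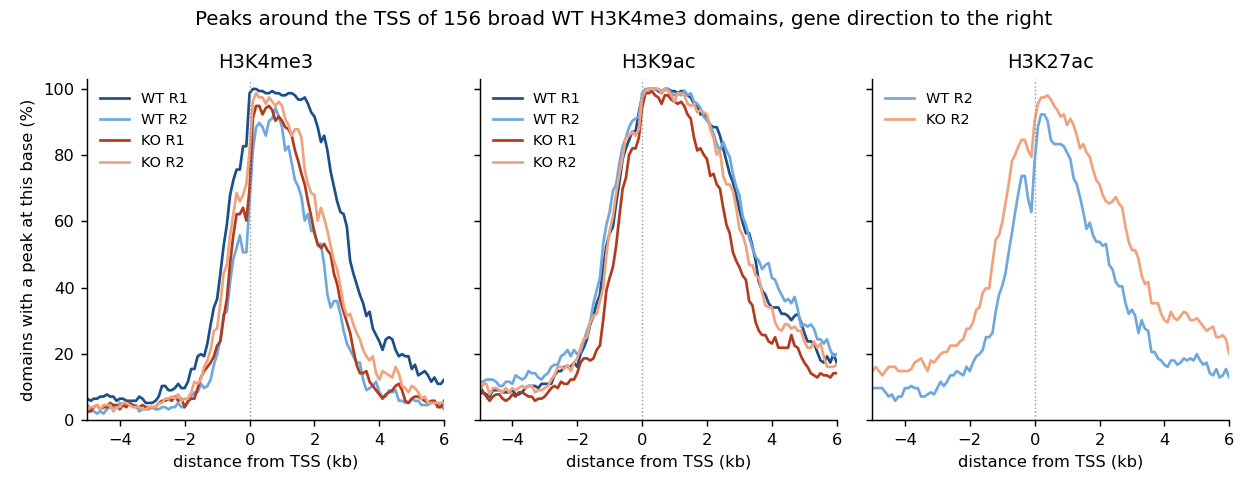
Lines give the share of the 156 broad WT domains with a single protein-coding gene that have a peak at each distance from the TSS (horizontal axis, kb, downstream to the right; vertical axis, %), 1 line per library. At 2000 bp downstream H3K9ac was present in 91.0% and 90.4% of them in WT and in 78.8% and 92.3% in KO, and H3K27ac in 53.8% in WT R2 and 71.2% in KO R2.

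Along the gene, both H3K9ac libraries of each genotype had a peak at 3000 bp in more domains than both H3K4me3 libraries of that genotype. At 3000 bp downstream of the TSS, H3K4me3 was present in 58.3% and 23.1% of the 156 domains in WT R1 and R2 and in 29.5% and 31.4% in KO R1 and R2. H3K9ac was present there in 63.5% and 67.9% in WT and in 46.2% and 57.7% in KO. At 1000 bp H3K9ac was present in 99.4% and 98.1% of the domains for WT and in 96.2% for both KO libraries. At both distances the KO libraries were below the WT libraries, and at 2000 bp KO R2 was not, with 92.3% against 91.0% and 90.4%. At 2000 bp H3K4me3 of WT R1 stood at 91.7%, above both WT libraries of H3K9ac. The H3K9ac lists covered more of the genome than the H3K4me3 lists, and the part of this in the reach was not tested.

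H3K27ac, which rests on 1 library per genotype and has no test, covered 69.2% of the bases of the domains in WT R2 and 83.8% in KO R2. It had a peak in 200 domains in WT and 201 in KO, and in 9924 and 11128 of the 12439 other regions. It was a single peak in 61 domains in WT (30.2%) and in 95 in KO (47.0%), against 65.9% and 77.2% of the other regions, and the median longest peak was 1811.5 bp in WT and 2743 bp in KO. The KO library covered more in the domains, by 14.6 percentage points, and also in the other regions, where the cover was 56.8% in WT and 75.5% in KO. The whole KO list covered 35.8 Mb against 19.7 Mb in WT, and the part of this in the difference was not tested. A cover at least 10 points higher in KO was found in 116 domains (57.4%), against 57.7% over all consensus regions, and one at least 10 points lower in 0, against 3.48%. The members' share for higher cover was near the background. H3K4me1, which marks enhancers and promoter flanks, covered 2.25% of the domains in WT R2 and 14.5% in KO R2, and 2.94% and 14.8% of the other regions. The whole H3K4me1 list of R2 covered 11.5 Mb in WT and 42.15 Mb in KO, with a median peak width of 215 and 425 bp. The part of this in the H3K4me1 difference was not tested.

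The widest domain was at *Meis1*, the homeobox cofactor of Hoxa9 in MLL leukemia (chr11:19012371-19021771, 9401 bp). It was 1 H3K4me3 peak in WT R1, 3 in WT R2, 3 in KO R1 and 2 in KO R2, and the cover was 100%, 77.8%, 91.9% and 81.4% in the same order. H3K9ac was 1 peak in all 4 libraries, with a cover of 100% in both WT libraries and of 100% and 94.1% in KO R1 and R2. H3K27ac covered 86.9% in WT and 92.5% in KO. The widest KO consensus region in it was 8308 bp, so both genotypes had a broad domain there, and the H3K9ac libraries differed by no more than a short end in KO R2.

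The *Hoxa* cluster, whose products drive self-renewal in MLL leukemia, held 5 domains within 24113 bp (chr6:52211076-52235188), at *Hoxa3*, at *Hoxa7*, at *Hoxa7* and *Hoxa9* together, at *Hoxa9* and at *Hoxa10*. The widest of them, at *Hoxa7* and *Hoxa9* (7364 bp), was 1 H3K4me3 peak in WT R1, 6 in WT R2, 7 in KO R1 and 5 in KO R2. Over the whole span H3K9ac covered 96.8% and 99.5% in WT R1 and R2 and 92.0% and 97.5% in KO R1 and R2. Its longest peak was 19998 and 20098 bp in WT and 8005 and 16243 bp in KO, so a single H3K9ac peak held most of this span in both WT libraries and in KO R2. The rest of the cluster was not examined. H3K9ac had 3 peaks in WT R1, 2 in WT R2, 8 in KO R1 and 3 in KO R2, so KO R2 equalled WT R1. H3K27ac covered 84.0% of the span in WT R2 and 95.3% in KO R2.

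*Ikzf2*, which encodes the zinc finger factor Helios (chr1:69680324-69687281, 6958 bp), had a broad H3K4me3 domain in WT and none in KO. H3K4me3 covered 100% and 60.5% in WT R1 and R2 and 32.5% and 62.3% in KO R1 and R2, in 1, 7, 6 and 6 peaks. WT R2 was as fragmented as the KO libraries, and KO R2 covered more than WT R2. The widest KO consensus region there was 1607 bp. H3K9ac covered 100% and 100% in WT and 99.0% and 100% in KO, and H3K27ac 93.8% in WT R2 and 98.9% in KO R2, so both acetyl marks lay over nearly the whole stretch in every one of these libraries.

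**Figure D4:**
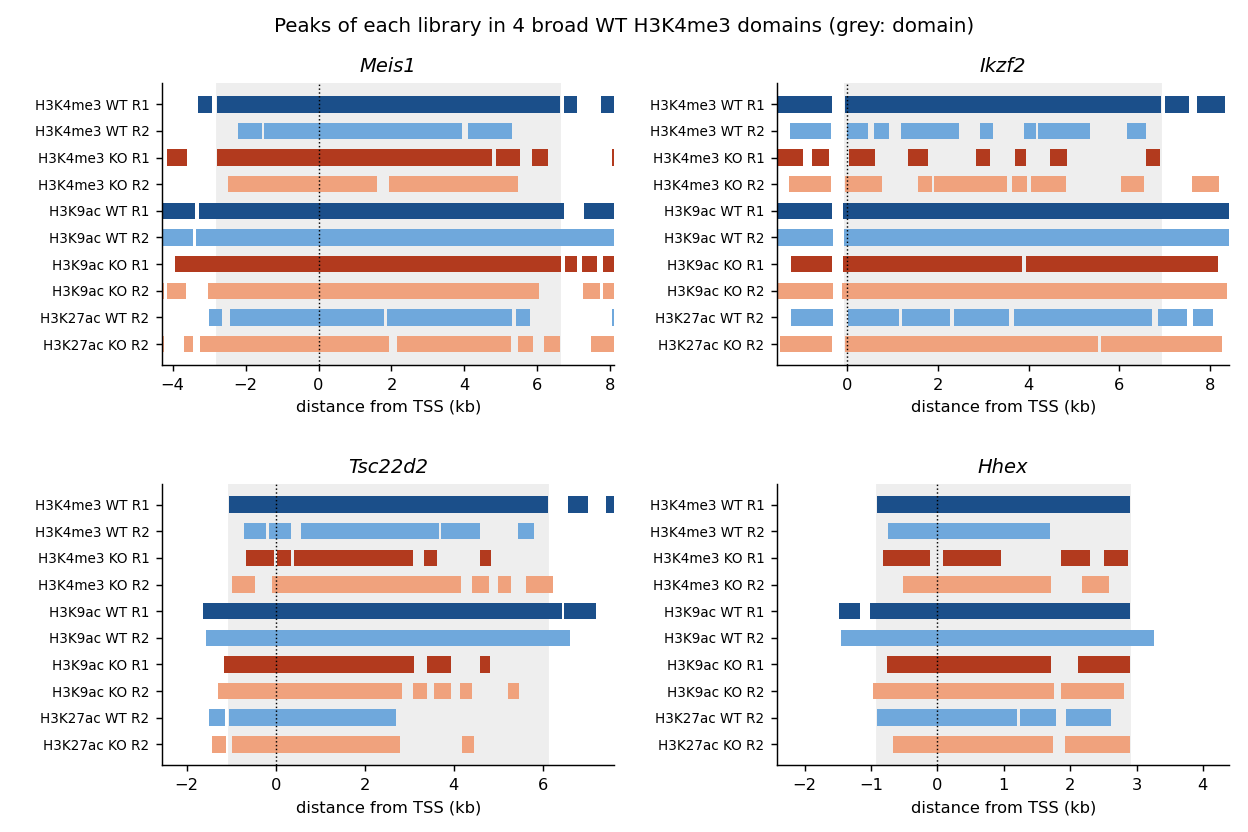
Bars mark the peaks of each library around 4 broad WT domains (grey), by distance from the TSS in kb with the gene running to the right; the window ends 1.5 kb beyond the domain, and dark and light shades are R1 and R2. At Meis1 and Ikzf2 the H3K9ac bars span nearly the whole domain in all 4 libraries, and at Tsc22d2 they end earlier in both KO libraries (cover 69.1% and 71.7%) than in WT (100% in both).

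The other members of the lists named by width were covered by H3K9ac in both genotypes. *Myb*, a progenitor factor and *MLL-AF9* target (4650 bp), had a cover of 88.7% and 94.99% in WT R1 and R2 and of 82.1% and 93.5% in KO R1 and R2. *Erg*, an ETS factor of stem cells (5044 bp), had 98.3% and 100% in WT and 99.0% and 100% in KO. *Lyl1*, a basic helix-loop-helix factor (4889 bp), had 97.8% and 100% in WT and 82.9% and 97.7% in KO. The WT and KO values overlapped at *Myb* and *Erg*, and at *Lyl1* KO R2 lay just below WT R1. *Lmo2*, an adaptor of blood transcription factor complexes (4100 bp), was covered to 98.8% or more in all 4 libraries. *Runx2* (5014 bp), *Gfi1*, a myeloid repressor (4820 bp), and *Eya1* (4828 bp) had values between 99.9% and 100% in WT, and between 89.2% and 100% in KO. *Zeb2*, a zinc finger repressor, had domains of 5722 and 3329 bp, both at 100% in WT and at 92.8% to 100% in KO. Both KO libraries lay below both WT libraries at *Runx2* (94.8% and 99.0% in KO), *Gfi1* (89.2% and 94.6%) and the 3329 bp domain of *Zeb2* (96.2% and 92.8%). At *Eya1* and the 5722 bp domain of *Zeb2*, KO R2 equalled WT at 100%. *Cebpa*, the factor that directs granulocyte fate (3599 bp), had 97.1% and 92.9% in WT and 95.6% and 92.0% in KO, which overlap. H3K27ac was higher in KO at *Myb*, with 36.4% in WT R2 and 82.1% in KO R2, and at *Lmo2*, with 64.0% and 100%.

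Among the 72 domains with lower H3K9ac cover in both KO libraries, the 5 largest differences lay outside the gene lists. A domain without a TSS near *Chil3*, a chitinase-like gene of myeloid cells (chr3:106163193-106166319, 3127 bp), was covered to 47.0% and 55.2% in WT R1 and R2 and to 7.71% and 0% in KO R1 and R2. It was the only one of the 202 without a KO consensus region of H3K4me3, with cover of 100% and 37.9% in WT and 0% and 62.8% in KO, and it had no H3K27ac peak of replicate 2 in either genotype. *Tsc22d2*, of the leucine zipper family TSC22 (chr3:58413668-58420824, 7157 bp), was covered to 100% in both WT libraries and to 69.1% and 71.7% in KO R1 and R2. Its H3K27ac cover was 52.3% in WT and 56.7% in KO, and the main H3K9ac peak of KO ended near the downstream end of the main H3K27ac peak, where only short H3K9ac peaks followed. *Hpgd*, which inactivates prostaglandins (4964 bp), had 87.1% and 84.3% in WT and 63.8% and 51.7% in KO. *Hmga1*, an architectural chromatin protein (3309 bp), had 99.8% and 100% in WT and 71.7% and 80.6% in KO. *Hp*, the hemoglobin-binding haptoglobin (5122 bp), had 92.7% and 94.8% in WT and 67.6% and 75.4% in KO. In these 5 the genotypes did not overlap, which the choice of the domains fixed.

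**Figure D5:**
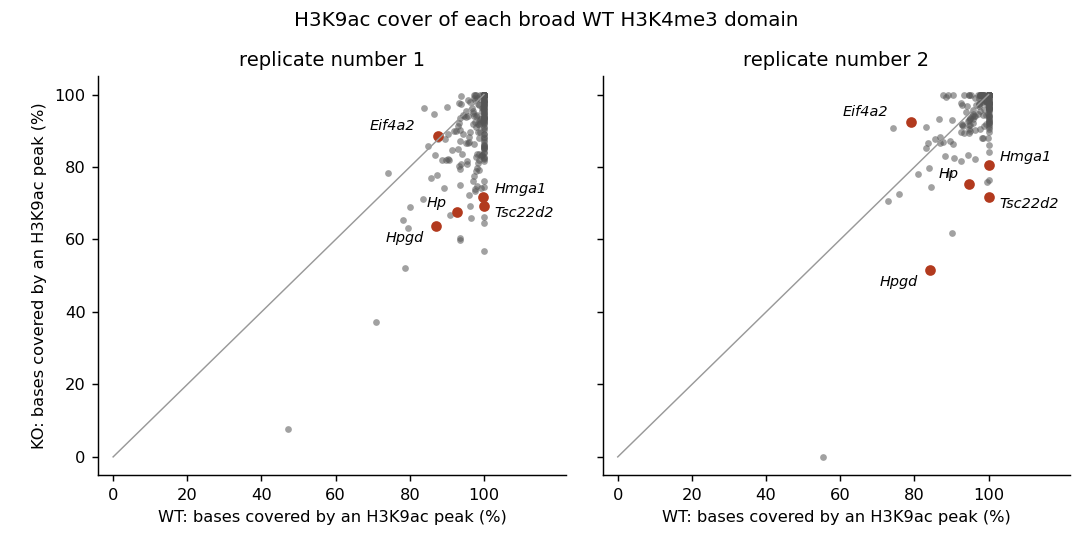
Each point is 1 of the 202 broad WT domains, with the share of its bases covered by an H3K9ac peak in WT (horizontal axis, %) and KO (vertical axis, %), in 1 panel per replicate number; the line marks equal values. Most points lie above 80% on both axes, and Hpgd, Hmga1, Hp and Tsc22d2 lie below the line in both panels, at 51.7% to 80.6% in KO.

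The 3 domains with higher cover in both KO libraries differed by less. *Eif4a2*, a helicase of translation initiation (3065 bp), had 87.7% and 79.1% in WT R1 and R2 and 88.6% and 92.6% in KO R1 and R2. *Tbrg4*, a regulator of mitochondrial RNA (3347 bp), had 93.3% and 94.6% in WT and 97.6% and 100% in KO. The domain of *Tor1aip1* and *Tor1aip2*, which encode activators of torsin at the nuclear envelope (3076 bp), had 97.4% and 97.1% in WT and 99.0% and 100% in KO.

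The remaining wide domains included starts of noncoding genes and stretches without a start. A domain of 6294 bp (chr8:126587198-126593491) held no TSS, and the nearest, that of the corepressor gene *Irf2bp2*, was 3641 bp from its centre. It was covered by H3K9ac to 97.7% or more in WT and to 94.4% and 100% in KO. The *Malat1* domain, at an abundant nuclear noncoding RNA (5164 bp), had H3K9ac cover of 99.4% and 87.0% in WT and 83.3% and 88.2% in KO, and H3K27ac of 19.6% in WT and 52.6% in KO. *Rnf220*, a ubiquitin ligase gene (5634 bp), was covered by H3K9ac to 97.9% or more in all 4 libraries. The domain of *Igsf6* and *Mettl9* (5225 bp) had 74.1% and 81.0% in WT and 78.4% and 78.0% in KO, and its widest KO consensus region was 1570 bp.

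The strongest summit of each domain had a median fold enrichment of 10.3 and 7.33 for H3K4me3 in WT R1 and R2, against 8.06 and 5.30 in the other regions, and of 15.7 and 17.96 for H3K9ac, against 10.6 and 10.96. Regions from 2000 to just under 3000 bp had values close to those of the domains, with 10.4 and 6.91 for H3K4me3 and 15.4 and 16.4 for H3K9ac. In KO R1 and R2 the H3K9ac values were 14.1 and 18.7 in the domains, 13.3 and 16.5 from 2000 to just under 3000 bp and 9.15 and 11.3 in all other regions. These are the authors' ratios at the summit and are compared here only within a list. The limit of 3000 bp does not separate kinds of regions: just inside it lay *Sept10* and *Sowahc* (3000 bp), *Rrm2* (3003 bp) and *Mboat7* and *Tsen34* (3004 bp), and just outside it *D1Ertd622e* (2992 bp), *Gnai2* and *Stk10* (2981 bp each).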

How the data were processed

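ChIP-seq of 4 histone marks was analysed from 16 peak lists, 2 libraries per mark and genotype. The authors aligned 50 bp single-end reads to mm10 with BWA and stated that peaks were called per library with MACS2 at a q-value of 0.05 (versions not given in the sources used here). The lists used here also hold peaks above this limit. The share of peaks within it was 85.0% to 93.5% for H3K4me3 and 89.2% to 96.1% for H3K9ac. In R2 of WT and KO it was 87.6% and 92.4% for H3K27ac, and 34.3% and 83.6% for H3K4me1. In R1 of these marks it was at most 0.0485%. In each deposited list a peak has its position, a ratio (fold enrichment at the summit), a score, and its p-value and q-value as −log10. The fold ratio was used to describe summits, the deposited −log10 values for stricter thresholds and ranking, and the score not at all. No list holds counts, so precision cannot be derived from depth. The input libraries were not analysed here.

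Overlapping peaks of WT R1 and R2 (1 bp sufficed) were merged, and stretches with a peak of both and a width of at least 3000 bp were the members. Cover is the percentage of bases in peaks of a library. Libraries, not regions, were compared, by two-sided exact permutation of 2 against 2, whose smallest p is 0.333. The replicate numbers name separate preparations of the same pools, and nothing says that a number pairs genotypes. TSS came from GENCODE M21 (GRCm38, whose chromosome lengths contain all peaks), promoters and sequence from RefSeq GRCm38.p6; promoters of 173 genes matched a domain. The intron windows were added to the windows at the TSS.

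The members and the gene lists were chosen with earlier results of these data known, so no list is independent evidence. Named were the 10 widest domains, the 6 widest of each of 3 lists (stem and progenitor, myeloid, *MLL-AF9* targets), members of the gene lists (not all are reported here), the 5 largest falls and up to 5 largest rises of H3K9ac cover, the 5 domains that were 1 peak in WT with the most peaks in KO, and 3 regions on each side of the limit. Alternatives were stricter thresholds, other widths, intersected or joined peaks, an overlap of 50%, equal numbers of peaks, choice in KO, single libraries, left-out replicates and a replicate block. Python 3.11.15, numpy 2.4.6, scipy 1.17.1 and matplotlib 3.10.9 were used. Merging, cover and intersection were tested on simulated peaks and gave the results of bedtools 2.31.1 in 50 of 50 runs each.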

Additional observations from a re-analysis of the deposited data

Results flagged for a closer look

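Replicate 1 of H3K27ac and of H3K4me1, which the comparisons did not use, still had peaks in the broad domains of WT. In H3K27ac R1 of WT, 41.6% of the domains (84 of 202) held a peak, against 16.3% of the other consensus regions. The peaks were short, and the cover was 1.22% of the bases in the domains and 1.29% in the other regions, so it was not higher in the domains. In H3K4me1 R1 of WT, 3.47% of the domains (7 of 202) held a peak, against 1.05% of the other regions. Only 0.0485% of all peaks in the WT list of H3K27ac R1, and 0% in that of H3K4me1 R1, had a q-value of at most 0.05. These shares therefore rest almost wholly on peaks that fail this limit, and nothing is read from them. In KO, 2 domains (0.990%) held a peak of H3K27ac R1, against 0.314% of the other regions, and 3 (1.49%) a peak of H3K4me1 R1, against 0.812%. The lists differ in size, with 26791 peaks in WT and 2725 in KO for H3K27ac R1, and 5368 and 27423 for H3K4me1 R1, so the genotypes are not compared. A wide region can be hit more often than a narrow one by peaks placed anywhere, and its part in these shares was not tested.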

How the results depend on the processing

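Differences are KO minus WT in percentage points. H3K9ac cover of the domains stayed below 0 in all 16 alternatives (-8.27 to -2.01), and so did the single-peak share of H3K9ac (-27.8 to -4.95). The alternatives for the single-peak share of H3K9ac were not planned. With 2 libraries per genotype no p could pass a threshold, so a kept sign is not a passed test. The H3K9ac cover of domains minus other regions (0.506) turned to -1.20 with −log10 q of at least 5 and to -0.258 with peaks within 500 bp joined. H3K4me3 cover (-6.57) turned to 5.70 with regions chosen in KO, and with regions chosen on a single library (added after the data were seen) to 7.92 for KO R1 and 5.80 for KO R2, where the single-peak share of H3K4me3 (-29.7) turned to 32.6 and 10.4. A library that chose the regions alone stood at 100% for both measures by the choice, so these turns are not read. Leaving out a replicate number gave -26.3 to 13.1 for H3K4me3 cover and -74.8 to 15.3 for its single-peak share, with the positive values without replicate 1, and -8.27 to -2.59 for H3K9ac cover. With the replicate block the values were the same (-6.57 for H3K4me3 cover, -5.43 for H3K9ac cover). The sign-flip test of 2 pairs cannot give a p below 0.5, so it could change no call and nothing is read from it. The number of domains was 1075 at 2000 bp, 58 at 4000 bp, 9 for intersected pieces, 636 with peaks joined and 109 chosen in KO. Chosen on WT R2, KO R1 and KO R2 alone it was 11, 23 and 53, the numbers of peaks of at least 3000 bp in these lists. The H3K27ac difference (14.6) was 21.3 with −log10 q of at least 5 and -1.21 for replicate 1 only. The share with a TSS (94.1%) was 100% for intersected pieces and for WT R2 alone, 87.0% for KO R1 alone, 89.1% for protein-coding genes and 74.8% for the outermost TSS of each gene. The cause of these shifts was not tested where none is given. Depth is unknown, and the replicates share their animals.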
